A study of Homo sapiens with 6 samples.

Results

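The nuclear genes that encode subunits of respiratory chain complexes I to V were examined in PC-3 cells treated with cepharanthine. Members were the rows of the deposited gene table whose symbols follow the NDUF, SDH, UQCR, CYC1, COX4 to COX8 or ATP5 subunit patterns. The patterns matched 115 of 38843 rows. Of these, 84 were subunit genes: 37 of complex I, 4 of complex II, 10 of complex III, 14 of complex IV and 19 of complex V. The other 31 were pseudogenes, 6 of complex III and 25 of complex V, and were kept apart. The patterns read gene symbols and no expression values.

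PC-3 is a human prostate cancer cell line derived from a bone metastasis, and cepharanthine is a plant alkaloid of the bisbenzylisoquinoline type. RNA sequencing was done on 3 libraries of cells given 5 µM cepharanthine hydrochloride and 3 libraries of control cells, all taken on day 3. Both groups were unmodified PC-3 cells (genotype WT in the labels) grown in DMEM with serum. The labels do not say what the controls received, nor whether each library is a culture of its own, and the p-values rest on the spread between the libraries, which may be technical.

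The respiratory chain passes electrons along the inner mitochondrial membrane. Complex I takes them from NADH and complex II from succinate, ubiquinone carries them to complex III, and cytochrome c carries them to complex IV, which reduces oxygen. Complexes I, III and IV pump protons, and complex V, the ATP synthase, uses the returning protons to make ATP. All complexes other than II also hold subunits encoded by mitochondrial DNA, which the patterns do not take in. PC-3 cells were not measured for respiration here, and only transcript levels are described.

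The libraries held 57971202, 53017816 and 68241156 counts with cepharanthine and 55351436, 59241954 and 52774506 in controls. Transcripts of the mitochondrial genome took 6.61%, 6.51% and 4.86% of counts with cepharanthine and 11.7%, 8.75% and 12.2% in controls. The cell line markers KRT8, KRT18, EPCAM, VIM and CD44 summed to 1806 to 2020 CPM (counts scaled to each library's TMM-normalised total) with cepharanthine and 1435 to 1500 in controls. VIM and KRT8 were called higher, EPCAM (log2 fold change -0.37) and CD44 (-0.26) lower, and KRT18 did not pass. TMPRSS2, a prostate gene known to be low in PC-3, was not low here, at 42.6 CPM with cepharanthine and 67.7 in controls. Of 5 fibroblast markers COL1A1 and COL3A1 fell; the sum of all 5 was 69.0 to 75.8 CPM with cepharanthine and 124.8 to 151.1 in controls, and DCN averaged 0.143 CPM with cepharanthine and 0.0669 in controls. Of 3 endothelial markers PECAM1 fell, at 21.0 CPM with cepharanthine and 46.5 in controls, with VWF and CDH5 under 0.2 CPM on average in both groups. Blood cell markers summed to under 1 CPM in every library. The part of these marker changes in the results below was not tested. Fewer cells of a type and less RNA per cell cannot be told apart in such bulk RNA.

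Control replicate 2 stood apart from the other controls for the subunit genes. Its median member lay 0.17 above the mean of the controls on the log2 CPM scale, against -0.09 and -0.07 in control replicates 1 and 3. It was the highest control for 61 of the 81 members tested. The cepharanthine libraries had medians of 0.13, 0.26 and 0.33, so that replicate 1 lay below control replicate 2. Results that rest on these libraries are given with and without them.

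Transcripts of the subunit genes were more often higher than lower with cepharanthine. Of the 84 genes, 81 passed the filter on low counts; COX7A1, COX8C and ATP5MGL did not. By edgeR's quasi-likelihood test (Benjamini-Hochberg adjustment, 21965 genes tested), 24 of the 81 were higher (29.6%), 6 were lower (7.41%) and 51 did not pass. Over all genes tested, 14.7% were called higher and 13.2% lower. Among protein-coding genes with a principal transcript of over 600 and up to 1000 bases, 23.5% were called higher and 5.96% lower. From there up to 1500 bases the shares were 25.5% and 7.46%. These classes held 55.6% of the members tested, of which 12 of 30 and 4 of 15 were higher, and 2 in each lower. The median log2 fold change of the members was 0.25, against -0.02 over all genes, and 65 members had a positive and 16 a negative value. All 3 cepharanthine values lay above all 3 control values for 29 of the 81 members and below them for 9 of the 81, where 21.8% and 21.7% of all genes did so. The remaining 43 of the 81 members overlapped between the groups, as did all genes outside those 21.8% and 21.7%.

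These counts depended on single libraries. The 24 higher calls became 9 and 11 when cepharanthine replicate 2 or 3 was left out, 7 when either control replicate 1 or 3 was, and 33 when control replicate 2 was. The 6 lower calls became 3 without cepharanthine replicate 1. None of the 30 called members turned its direction in any of these 6 fits. Calls held in all 6 for 6 of the 24 higher members (NDUFC1, NDUFV2, NDUFB4, ATP5F1E, ATP5MD and ATP5MC2) and 3 of the 6 lower ones (NDUFA10, CYC1 and ATP5MC1). Scaling also mattered: with limma on log2(TPM + 1), where the median of all genes moved to 0.26, 39 members were called higher and 0 lower, and the members' median lay 0.22 above that of all genes, against 0.27 in the count test. Of all calls, 83.4% were then higher, against 52.6% in the count test and 62.8% with limma on log2(FPKM + 1).

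**Figure D1:**
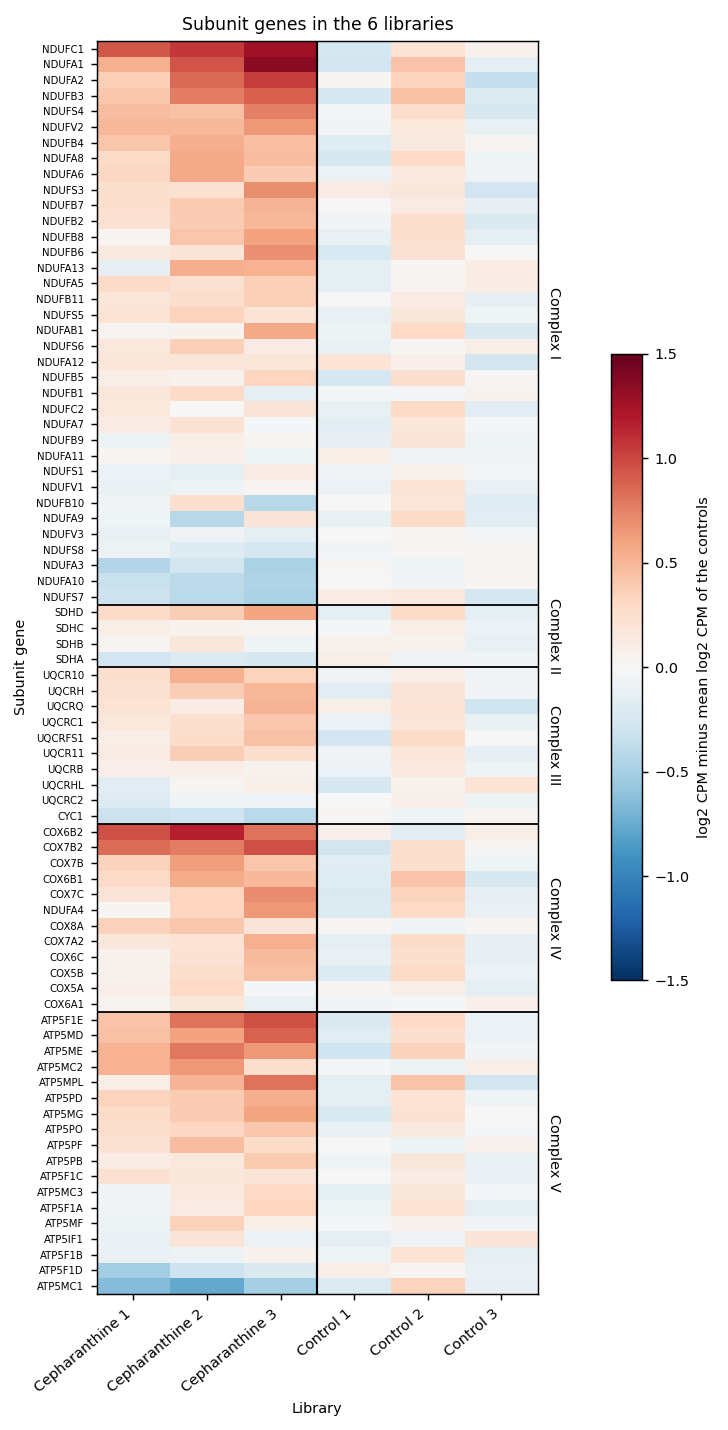
Log2 CPM of 80 of the 81 subunit genes tested (rows, by complex and then by fold change) minus the mean of the controls, in the 3 cepharanthine libraries (left) and the 3 control libraries (right); red is above and blue below the controls. Control replicate 2 is the highest control for 60 of the 80 genes drawn, and red rows outnumber blue ones in all complexes with more than 4 genes.

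**Figure D2:**
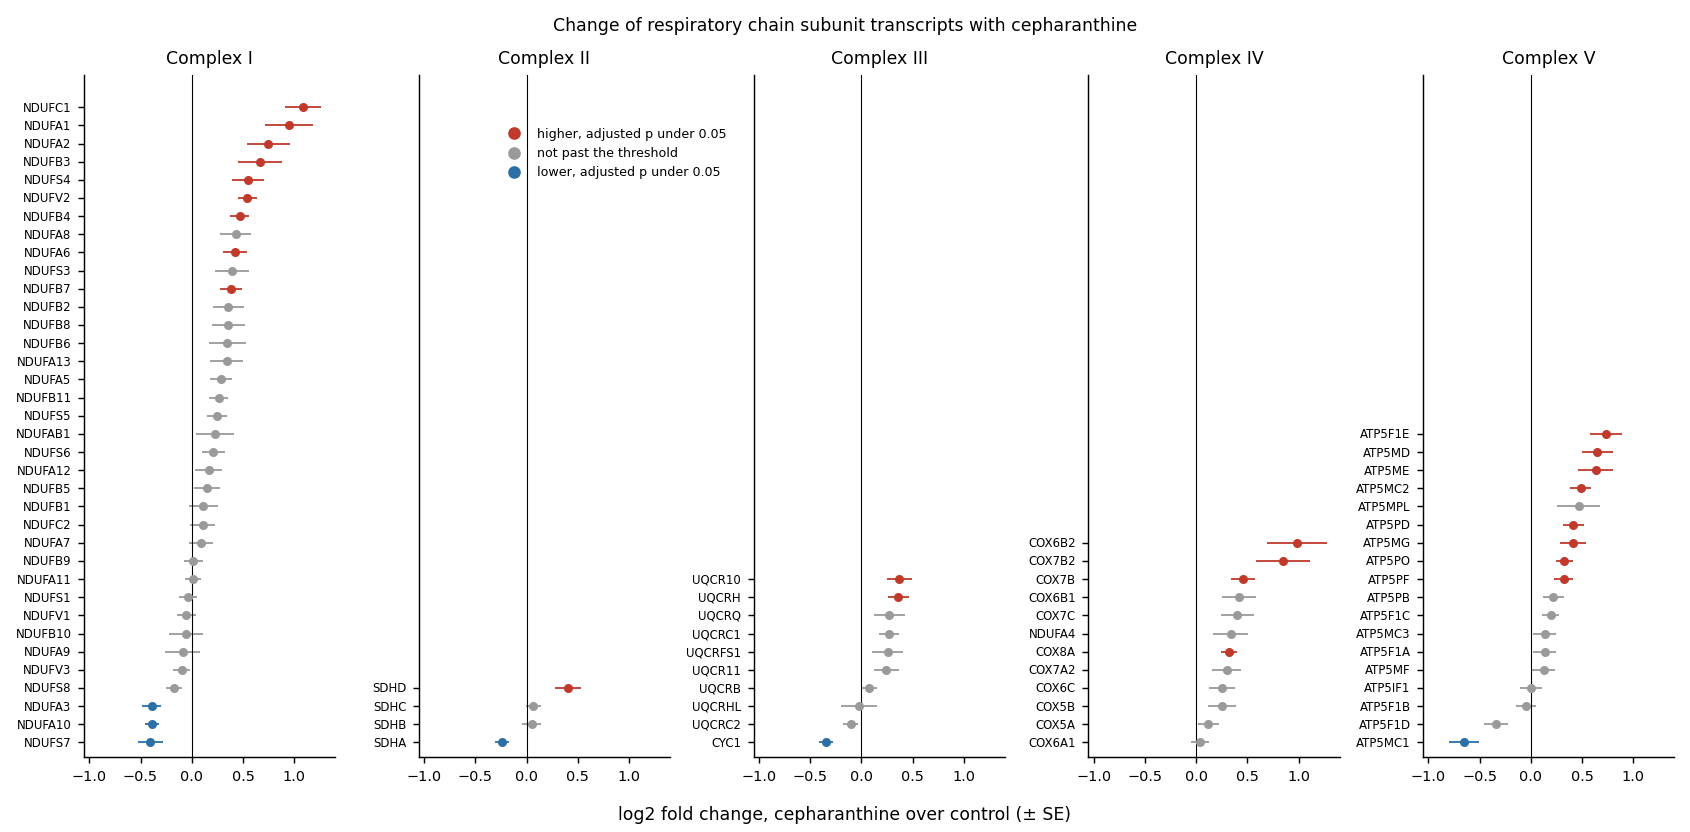
Log2 fold change, cepharanthine over control, with its SE, for 80 of the 81 subunit genes tested, in a panel for each complex. Red points passed the threshold as higher (24 genes), blue points as lower (6 genes) and grey points did not pass (50 genes).

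Complex I, the NADH dehydrogenase, had 9 members higher and 3 lower of 37 tested (24.3% and 8.11%), with a median log2 fold change of 0.23. Over all genes tested the shares were 14.7% and 13.2%. Among protein-coding genes of over 600 and up to 1000 bases they were 23.5% and 5.96%, and complex I had a median length of 958 bases. Of the 30 accessory subunits, which surround the catalytic core, 8 were higher (26.7%) and 2 lower (6.67%), with a median of 0.25. Of the 7 nuclear-encoded core subunits, which bind FMN and the iron-sulfur clusters, 1 was higher and 1 lower (14.3% each), with a median of -0.04. The difference between core and accessory subunits was not tested. Without cepharanthine replicates 2 or 3 the higher calls became 5 and 4, without control replicates 1 or 3 they became 3 and 3, and without cepharanthine replicate 1 the lower calls became 1.

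NDUFC1, a small accessory subunit of the membrane arm, rose most. It had 9.01, 9.88 and 11.4 CPM with cepharanthine and 3.93, 5.46 and 4.93 CPM in controls. The groups were well apart, with a log2 fold change of 1.08 ± 0.18 (SE; edgeR adjusted p = 0.00156), or 2.12-fold. NDUFC1 lies on the minus strand of chromosome 4 (139266880 to 139302551, GRCh38) and overlaps MGARP on the same strand and NAA15 on the other, so reads may be shared. NDUFA1, a short membrane-spanning subunit encoded on the X chromosome, had 16.5, 22.0 and 29.3 CPM with cepharanthine and 9.42, 15.4 and 10.4 CPM in controls. Cepharanthine replicate 1 lay only just above control replicate 2. Its log2 fold change was 0.95 ± 0.23 (edgeR adjusted p = 0.013), a call lost without cepharanthine replicate 3 or without control replicates 1 or 3. NDUFA2, an accessory subunit with a thioredoxin-like fold, had 13.9, 19.5 and 22.2 CPM with cepharanthine and 10.96, 13.6 and 8.49 CPM in controls. The groups touched without overlapping, at 0.75 ± 0.21 on the log2 scale (edgeR adjusted p = 0.0228), and only the fits without cepharanthine replicate 1 or control replicate 2 kept the call.

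The 3 lower members of complex I held different places in it. NDUFS7, a core subunit that carries the last iron-sulfur cluster before ubiquinone, had 24.1, 22.6 and 21.4 CPM with cepharanthine and 32.3, 33.1 and 24.8 CPM in controls. Control replicate 3 was close to the treated libraries; the log2 fold change was -0.41 ± 0.12 (edgeR adjusted p = 0.0314), and of the 6 fits that left out a library only that without control replicate 3 kept the call. NDUFA10, an accessory subunit of the membrane arm, had 103.7, 100.1 and 96.1 CPM with cepharanthine and 131.7, 127.9 and 133.8 CPM in controls. Both groups were tight and far apart, at -0.39 ± 0.07 (edgeR adjusted p = 0.00223). NDUFA3, a small membrane subunit, had 22.5, 25.3 and 22.0 CPM with cepharanthine and 30.9, 29.3 and 31.5 CPM in controls. It fell by 0.39 on the log2 scale with an SE of 0.09 (edgeR adjusted p = 0.0114), a call lost without cepharanthine replicate 1, and it overlaps TFPT on the other strand.

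The other 6 higher members of complex I ranged over log2 fold changes of 0.38 to 0.67. They were NDUFB3 (0.67), NDUFB4 (0.47) and NDUFB7 (0.38) of the distal membrane arm, the core subunit NDUFV2 (0.54), and NDUFS4 (0.55) and NDUFA6 (0.42) of the peripheral arm. NDUFV2 carries an iron-sulfur cluster of the NADH-binding module and had 51.7, 51.0 and 57.3 CPM with cepharanthine and 35.6, 40.6 and 33.7 CPM in controls. Its groups were clearly apart (edgeR adjusted p = 0.00212). The calls of NDUFV2 and NDUFB4 held in all 6 fits that left out a library, and those of NDUFB3, NDUFB7, NDUFS4 and NDUFA6 were lost without control replicate 1 or 3. Of the 11 NDUFB genes 3 were higher (27.3%, against 14.7% of all genes tested) and 0 lower (against 13.2%). Their median was 0.35, with 10 positive values. By unadjusted edgeR p under 0.05, 5 of the 11 passed, as did 8470 of all 21965 genes tested. The core subunits NDUFS1, NDUFS3, NDUFS8 and NDUFV1 had log2 fold changes of -0.17 to 0.39, none past the threshold. NDUFS3 was nearest in the positive direction, with 21.3, 21.2 and 29.3 CPM with cepharanthine and 19.7, 20.2 and 14.8 CPM in controls (edgeR adjusted p = 0.104).

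Complex II, the succinate dehydrogenase, is wholly nuclear-encoded, and its 4 genes moved unequally: 1 was higher, 1 lower and 2 did not pass, with a median log2 fold change of 0.06. The calls were 25% in each direction, against 14.7% and 13.2% of all genes tested. SDHA, the flavoprotein that oxidises succinate, had 108.7, 114.8 and 112.3 CPM with cepharanthine and 140.4, 127.8 and 128.6 CPM in controls. All treated libraries lay below all controls, at -0.24 ± 0.07 (edgeR adjusted p = 0.0302). SDHD, a membrane anchor that helps form the ubiquinone site, had 56.6, 59.7 and 69.7 CPM with cepharanthine and 41.7, 56.4 and 42.2 CPM in controls. Control replicate 2 almost met the treated libraries, and the log2 fold change was 0.41 ± 0.13 (edgeR adjusted p = 0.0383).

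SDHB, the iron-sulfur subunit, had 45.5, 49.7 and 42.4 CPM with cepharanthine and 46.4, 45.7 and 40.8 CPM in controls. SDHC, the other membrane anchor, had 75.7, 73.3 and 72.3 CPM with cepharanthine and 69.8, 75.4 and 66.3 CPM in controls. Both overlapped between groups, with log2 fold changes of 0.05 ± 0.09 and 0.07 ± 0.07. SDHA was called in only 1 of the 6 fits that left out a library (that without control replicate 2) and SDHD in 2 (those without cepharanthine replicate 1 or control replicate 2). SDHA has pseudogene copies in the genome with which reads may be confused.

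Complex III, the cytochrome bc1 complex, had 2 members higher and 1 lower of 10 (20% and 10%, against 14.7% and 13.2% of all genes tested). The median log2 fold change was 0.25. The member that fell is catalytic: CYC1, the cytochrome c1 that hands electrons to cytochrome c, had 128.7, 131.3 and 121.4 CPM with cepharanthine and 163.1, 154.5 and 166.2 CPM in controls. Its groups were tight and apart, at -0.34 ± 0.07 (edgeR adjusted p = 0.00523), and the call held whichever library was left out. UQCRFS1, the Rieske iron-sulfur protein, overlapped between groups, with 22.3, 25.4 and 28.2 CPM with cepharanthine and 17.1, 25.4 and 20.9 CPM in controls (log2 fold change 0.26, edgeR adjusted p = 0.24). This value was not past the threshold.

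The 2 higher members of complex III are small structural subunits. UQCR10 had 16.1, 19.6 and 17.04 CPM with cepharanthine and 13.1, 14.5 and 13.1 CPM in controls (log2 fold change 0.37 ± 0.12, edgeR adjusted p = 0.0465). UQCRH, the hinge protein between cytochromes c1 and c, had 63.2, 69.7 and 75.7 CPM with cepharanthine and 48.4, 61.5 and 52.3 CPM in controls (log2 fold change 0.36 ± 0.10, edgeR adjusted p = 0.0268). In both genes the lowest treated library lay just above control replicate 2. Neither call held without cepharanthine replicates 2 or 3 or without control replicates 1 or 3, where complex III had 0 higher members, and without cepharanthine replicate 1 it had 1. UQCRHL is a near-identical copy of UQCRH, so the reads of both are uncertain; it had a log2 fold change of -0.02. The core proteins UQCRC1 and UQCRC2 had 0.27 and -0.10, and UQCRB, UQCRQ and UQCR11 had 0.08 to 0.27, none past the threshold.

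Complex IV, cytochrome c oxidase, had 4 members higher and 0 lower of 12 tested (33.3% and 0%). Over all genes tested the shares were 14.7% and 13.2%. Among protein-coding genes of over 600 and up to 1000 bases they were 23.5% and 5.96%, and complex IV had a median length of 838 bases. All 12 log2 fold changes were positive, with a median of 0.33. The lower side had 0 calls at an unadjusted edgeR p under 0.05 too, since no member had a negative value, and DESeq2 also called 0. The higher calls became 1 and 0 when cepharanthine replicate 1 or 2 was left out, 1 when either control replicate 1 or 3 was, and 8 when control replicate 2 was.

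The largest fold changes were in isoforms whose main known site of expression is the testis. COX6B2 had 1.54, 1.77 and 1.38 CPM with cepharanthine and 0.824, 0.703 and 0.831 CPM in controls. The groups were apart at a low level, with a log2 fold change of 0.99 ± 0.29 (edgeR adjusted p = 0.0296), a call that only the fit without cepharanthine replicate 3 kept. COX7B2 had 2.06, 1.97 and 2.26 CPM with cepharanthine and 0.955, 1.37 and 1.17 CPM in controls, likewise apart, at 0.85 ± 0.26 (edgeR adjusted p = 0.0369), a call that only the fit without control replicate 2 kept.

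Their common counterparts were far more abundant per length. COX6B1 averaged 21.6 FPKM with cepharanthine and 15.7 in controls, while COX6B2 averaged 0.364 FPKM with cepharanthine and 0.174 in controls. COX7B averaged 15.2 FPKM with cepharanthine and 10.7 in controls, while COX7B2 averaged 2.27 FPKM with cepharanthine and 1.22 in controls.

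COX7B, a single-pass subunit, had 47.9, 58.0 and 50.1 CPM with cepharanthine and 33.2, 44.2 and 36.0 CPM in controls, without overlap (log2 fold change 0.46 ± 0.12, edgeR adjusted p = 0.0161), a call lost without cepharanthine replicate 2 or control replicates 1 or 3. COX6B1, which faces the intermembrane space, had 29.7, 36.0 and 34.2 CPM with cepharanthine and 21.5, 32.7 and 20.7 CPM in controls. Control replicate 2 fell within the treated range, and the value of 0.42 ± 0.17 did not pass (edgeR adjusted p = 0.0945). COX8A, the smallest subunit of the common set, had 78.0, 81.3 and 70.4 CPM with cepharanthine and 63.1, 59.1 and 61.9 CPM in controls (log2 fold change 0.32 ± 0.08, edgeR adjusted p = 0.013), a call lost without cepharanthine replicates 1 or 2.

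COX6A1 had 253.4, 278.3 and 228.0 CPM with cepharanthine and 239.2, 240.9 and 260.9 CPM in controls, and COX7A2 28.4, 29.3 and 36.6 CPM with cepharanthine and 22.8, 30.5 and 23.3 CPM in controls. Both overlapped between groups, at 0.04 ± 0.09 and 0.30 ± 0.14. COX6A1 was the member with the highest level per length, at 167.6 FPKM with cepharanthine and 157.6 in controls. COX7A1, known from muscle, had 0.118, 0 and 0 CPM with cepharanthine and 0.0375, 0.318 and 0 CPM in controls. COX8C, known from testis, had 0, 0.13 and 0.0284 CPM with cepharanthine and 0, 0.352 and 0.0594 CPM in controls. Both were highest in control replicate 2, where they lay above what 3 counts are worth in a library (0.0426 to 0.0594 CPM). COX7A1 in cepharanthine replicate 1 and COX8C in cepharanthine replicate 2 also lay above that level. Neither gene passed the filter. COX6A2 was not analysed here.

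The remaining complex IV members COX5A, COX5B, COX6C, COX7C and NDUFA4 had log2 fold changes of 0.12 to 0.40, none past the threshold. NDUFA4 bears a complex I name but is a complex IV subunit by present knowledge and was counted here. With NDUFA4 moved to complex I, complex I had 9 higher and 3 lower members and complex IV 4 and 0, as before.

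Complex V had 8 members higher and 1 lower of 18 tested (44.4% and 5.56%), with a median log2 fold change of 0.27. Over all genes tested the shares were 14.7% and 13.2%. Among protein-coding genes of over 600 and up to 1000 bases they were 23.5% and 5.96%, and complex V had a median length of 997 bases. The calls fell mainly in the peripheral stalk, which holds the F1 head still, where 3 of 4 were higher, and among the small membrane subunits of the Fo part, where 3 of 5 tested were higher. Of the 5 subunits of the catalytic F1 head 1 was higher (20%), near the shares above. The 8 higher calls became 4 without cepharanthine replicate 2 or 3 and 3 without control replicate 1 or 3. The 1 lower call became 2 without cepharanthine replicate 3.

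ATP5F1E, the epsilon subunit of the F1 central stalk, rose most. It had 49.8, 65.2 and 72.2 CPM with cepharanthine and 32.1, 45.5 and 35.0 CPM in controls, at 0.73 ± 0.16 on the log2 scale (edgeR adjusted p = 0.00655). The other F1 subunits did not pass. ATP5F1A (alpha) had 0.13, ATP5F1B (beta) -0.04, ATP5F1C (gamma) 0.19 and ATP5F1D (delta) -0.34 on the log2 scale. ATP5F1D had all treated libraries below all controls, with 15.7, 18.2 and 19.4 CPM with cepharanthine and 24.1, 22.8 and 20.8 CPM in controls, and lay at the threshold (edgeR adjusted p = 0.0525). ATP5F1B, the catalytic subunit, was the most abundant per length in the complex, at 113.5 FPKM with cepharanthine and 112.9 in controls.

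Among the membrane subunits, ATP5MD, which takes part in dimers of the synthase, had 19.3, 21.5 and 26.2 CPM with cepharanthine and 12.7, 16.7 and 13.4 CPM in controls (log2 fold change 0.65 ± 0.15, edgeR adjusted p = 0.0104). ATP5ME, the e subunit, had 12.3, 14.7 and 13.3 CPM with cepharanthine and 6.91, 10.8 and 8.27 CPM in controls (log2 fold change 0.63 ± 0.18, edgeR adjusted p = 0.0231). Neither overlapped between groups; the call of ATP5ME was lost without cepharanthine replicates 2 or 3 or control replicates 1 or 3. ATP5MG, the g subunit, rose by 0.41, while ATP5MF and ATP5MPL, at 0.13 and 0.47, did not pass. ATP5MGL, a copy of ATP5MG, had 0 counts in all libraries, which allows up to 0.0557 CPM in a cepharanthine library and 0.0594 CPM in a control library. In the peripheral stalk ATP5PD (0.41), ATP5PO (0.32) and ATP5PF (0.32) were higher, and ATP5PB (0.22) did not pass. The calls of ATP5MG, ATP5PO and ATP5PF held in 2 of the 6 fits that left out a library and that of ATP5PD in 3, none of them without control replicates 1 or 3. ATP5IF1, the protein that inhibits ATP hydrolysis by the enzyme, had a log2 fold change of 0.00 ± 0.11.

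Among the genes of the c ring, the proton-driven rotor, 1 fell, 1 rose and 1 did not pass. ATP5MC1, ATP5MC2 and ATP5MC3 encode the same mature protein with different import sequences. ATP5MC1 had 17.5, 16.2 and 19.6 CPM with cepharanthine and 23.9, 34.7 and 25.2 CPM in controls. It was below the controls in every treated library, at -0.65 ± 0.15 (edgeR adjusted p = 0.00933). ATP5MC2 had 88.6, 96.5 and 74.2 CPM with cepharanthine and 61.1, 58.7 and 65.5 CPM in controls. It was above them in every treated library, at 0.48 ± 0.10 (edgeR adjusted p = 0.00555). ATP5MC3 had 50.3, 57.3 and 64.0 CPM with cepharanthine and 46.8, 58.4 and 51.2 CPM in controls, which overlapped (0.13 ± 0.11, edgeR adjusted p = 0.416).

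**Figure D3:**
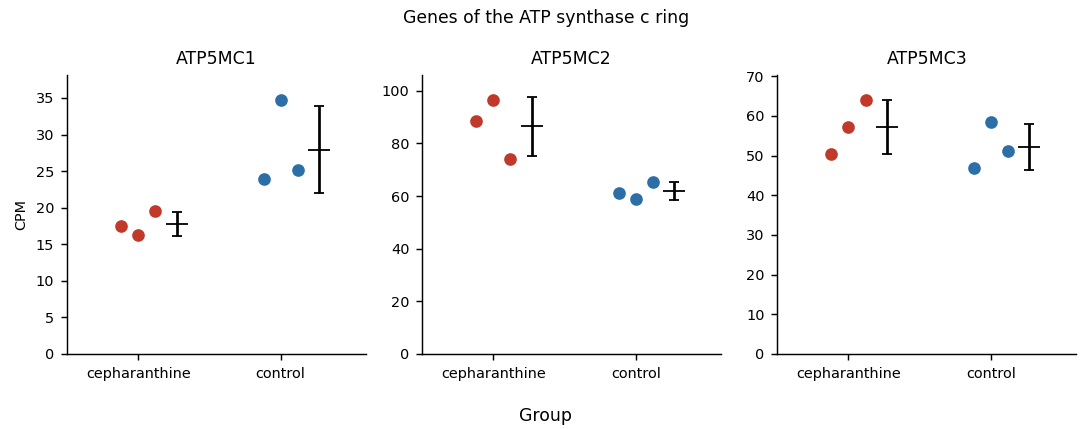
CPM of the c ring genes in each library (points, replicates 1 to 3), cepharanthine left and control right, with the mean and SD of 3 libraries. ATP5MC1 is lower in all cepharanthine libraries, ATP5MC2 is higher in all of them, and ATP5MC3 overlaps.

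Summed over the c ring genes, the level was 156.4, 170.0 and 157.8 CPM with cepharanthine and 131.8, 151.8 and 141.9 CPM in controls. ATP5MC1 made up 11.1% ± 1.43 of that sum with cepharanthine and 19.6% ± 2.86 in controls (SD, n = 3 each). ATP5MC2 made up 53.5% ± 5.58 with cepharanthine and 43.7% ± 4.39 in controls (SD, n = 3 each). Neither share overlapped between the groups: ATP5MC1 took 9.55% to 12.4% with cepharanthine and 17.8% to 22.9% in controls, and ATP5MC2 47.0% to 56.8% with cepharanthine and 38.7% to 46.4% in controls. Shares of CPM are not corrected for length, and these genes have many pseudogene copies, so their reads may be partly shared; the pair of calls held in all 6 fits that left out a library.

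The promoters of both genes are shown because these genes were called in opposite directions while their product is the same. The sequences are from RefSeq (GRCh38.p14), the 250 bases before the start site, written 5′ to 3′ on the strand of the gene. Capitals mark matches on either strand to the CCAAT box (CCAAT), the cAMP response element (TGACGTCA), the NRF1 half-site (TGCGCA) and the ETS core (CCGGAAG). ATP5MC1 lies at chr17:48892537-48892786 on the plus strand, and the sequence of ATP5MC2 at chr12:53676331-53676580 on the minus strand belongs to the most upstream of its 3 listed start sites.
ATP5MC1: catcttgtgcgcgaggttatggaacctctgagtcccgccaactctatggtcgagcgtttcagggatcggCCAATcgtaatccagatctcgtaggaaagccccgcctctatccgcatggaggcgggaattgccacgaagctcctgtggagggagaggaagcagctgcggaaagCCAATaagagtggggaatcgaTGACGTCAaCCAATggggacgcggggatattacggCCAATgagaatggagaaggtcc
ATP5MC2: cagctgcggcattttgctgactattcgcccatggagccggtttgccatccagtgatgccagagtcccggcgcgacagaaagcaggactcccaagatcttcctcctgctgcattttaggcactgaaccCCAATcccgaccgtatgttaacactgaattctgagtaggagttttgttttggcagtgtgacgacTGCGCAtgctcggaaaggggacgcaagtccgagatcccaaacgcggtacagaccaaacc
The window of ATP5MC1 held 4 CCAAT boxes and 1 cAMP response element, and the printed window of ATP5MC2 held 1 CCAAT box and 1 NRF1 half-site. Of the windows at the other start sites of ATP5MC2, 1 held 1 CCAAT box and none of the other motifs marked, and 1 held none of them.

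RefSeq promoters, 250 bases before to 50 after a start site, were found for 68 of the 84 subunit genes, 3 of them by a newer symbol, giving 80 promoters against 35116 in all. The NRF1 half-site was in 27.5% of the members' promoters and 8.24% of all, the ETS core in 26.2% of the members' and 10.3% of all, and the YY1 core (AAGATGG) in 23.8% of the members' and 5.84% of all. The GC box (GGGCGG) was in 60.0% of the members' and 45.0% of all, and the cAMP response element in 6.25% of the members' and 1.85% of all. The CCAAT box was in 33.8% of the members' and 34.6% of all, the TATA box (TATAAA) in 7.50% of the members' and 11.5% of all, and the ATF4-type element (TGATGNAA) in 2.5% of the members' and 3.62% of all. Both strands were searched, and motifs may overlap. By call, the ETS core was in promoters of 10 of 24 higher, 0 of 5 lower and 10 of 38 uncalled genes, and the NRF1 half-site in those of 5 of 24 higher, 3 of 5 lower and 12 of 38 uncalled genes. The CCAAT box was in those of 13 of 24 higher, 1 of 5 lower and 10 of 38 uncalled genes. These are descriptions of letters in the windows and were not tested.

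Levels per length differed more between genes than between groups. The median gene had 10.8 FPKM with cepharanthine and 10.3 in controls for complex I, 17.6 with cepharanthine and 15.3 in controls for complex II, and 14.4 with cepharanthine and 11.8 in controls for complex III. It had 18.4 FPKM with cepharanthine and 13.5 in controls for complex IV, and 15.4 with cepharanthine and 12.1 in controls for complex V. Within complex I NDUFS5 was highest, at 61.6 FPKM with cepharanthine and 50.3 in controls. NDUFA9 was lowest with cepharanthine, at 1.85 FPKM against 1.90 in controls. NDUFC1, which had the largest fold change of complex I, had 2.99 FPKM with cepharanthine and 1.36 in controls, the lowest control level of the complex. The gene lengths behind the FPKM values are not given, so the levels are those of the authors' length model.

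**Figure D4:**
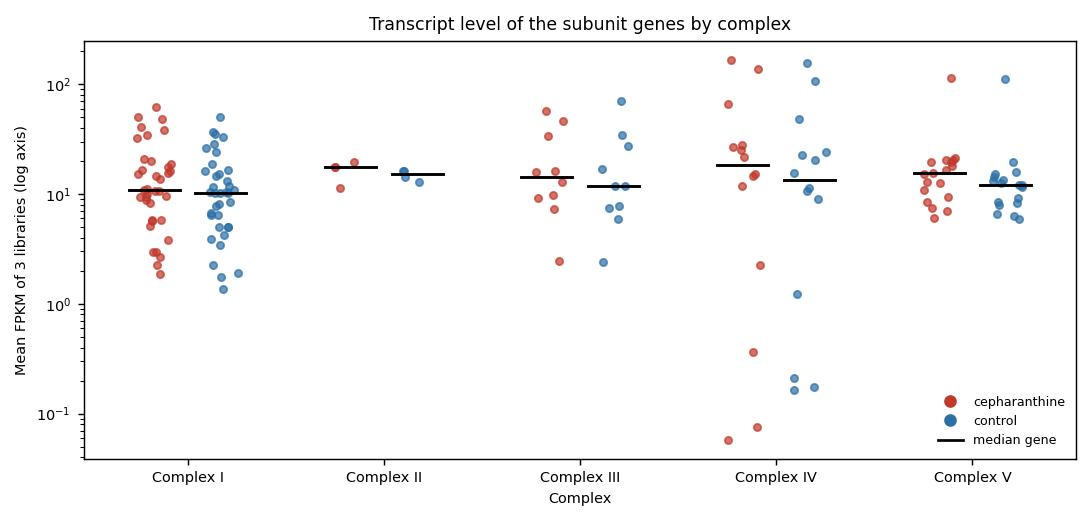
Mean FPKM of 3 libraries for each subunit gene (points), cepharanthine left and control right in each complex, on a log axis, with the median gene as a bar; ATP5MGL, listed at 0, is left out. Median levels lie between 10.3 and 18.4 FPKM, and complex IV holds both the highest gene (COX6A1) and the lowest ones.

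Summed CPM gives more weight to abundant genes. The sum was 1421, 1499 and 1550 CPM with cepharanthine and 1316, 1513 and 1346 in controls for complex I. It was 749.1, 836.3 and 836.8 CPM with cepharanthine and 639.3, 755.4 and 669.2 for controls in complex IV, and 1045, 1141 and 1200 CPM with cepharanthine and 934.1, 1112 and 944.9 for controls in complex V. In each of these the sum in control replicate 2 was above that of at least 1 cepharanthine library. The ratios of the means were 1.07 for complex I, 0.999 for complex II, 1.03 for complex III, 1.17 for complex IV and 1.13 for complex V.

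Most subunit genes are short, and short genes as a whole were higher with cepharanthine. Of the members tested, 55.6% had a principal transcript of over 600 and up to 1500 bases. Over 15004 protein-coding genes the median log2 fold change was 0.14 up to 600 bases, 0.23 up to 1000, 0.18 up to 1500, 0.06 up to 2500, 0.00 up to 4000 and -0.02 above 4000, each class starting above the bound before it. The members had medians of 0.13, 0.36, 0.24, 0.34, 0.16 and 0.01 in the same classes, over 9, 30, 15, 13, 6 and 8 genes. Between 600 and 1000 bases control replicate 2 was above control replicates 1 and 3, with medians of 0.10 against -0.05 and -0.03. Up to 600 bases it was not the highest control, with 0.02 against -0.06 and 0.04. With a transcript length offset in the count test, chosen after the values were seen, 22 members were higher and 7 lower, and 28 of the 30 calls were kept.

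**Figure D5:**
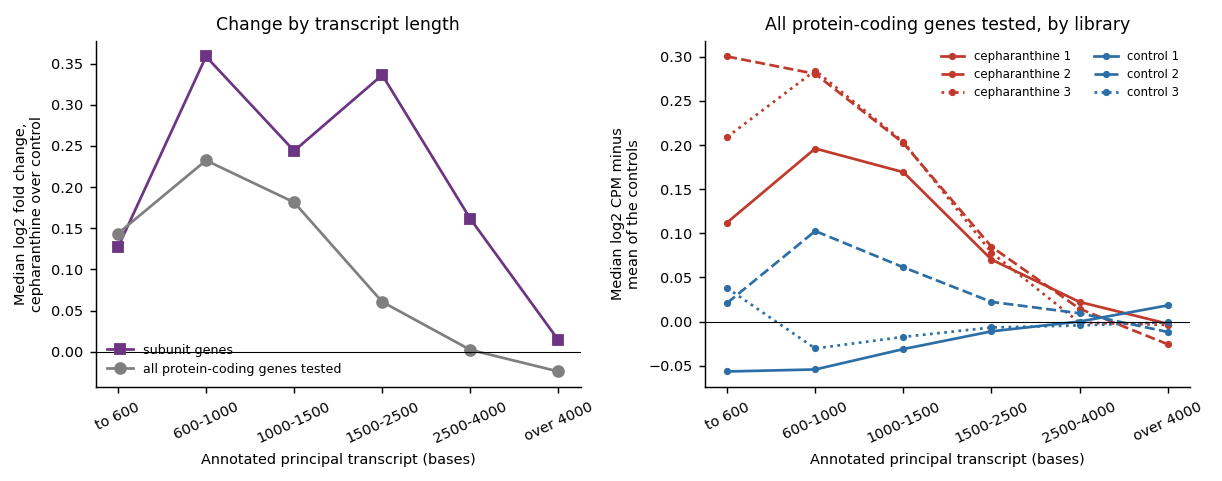
Left, the median log2 fold change, cepharanthine over control, of the subunit genes and of all protein-coding genes tested, by length of the principal transcript in bases. Right, the median log2 CPM of all protein-coding genes minus the mean of the controls in each library; between 600 and 1000 bases the cepharanthine libraries had 0.20, 0.28 and 0.28 and the controls -0.05, 0.10 and -0.03.

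Many members overlap another annotated gene, and the use of strand in counting is not given in the sources used here. Among the 35 members tested without any overlap, 8 were higher and 1 lower, with a median log2 fold change of 0.25. Of all genes tested, 14.7% were higher and 13.2% lower. Of protein-coding genes of over 600 and up to 1000 bases, 23.5% were higher and 5.96% lower. Of the pseudogenes 9 passed the filter, 0 were called higher and 1 lower (11.1%). The called pseudogene was ATP5F1AP10, a copy of the alpha subunit gene, with 85, 57 and 67 counts with cepharanthine and 178, 127 and 140 counts in controls (log2 fold change -1.25, edgeR adjusted p = 0.00868). At an unadjusted edgeR p under 0.05, 4 of the 9 pseudogenes passed, as did 8470 of all 21965 genes tested.

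The subunits encoded by mitochondrial DNA fell, unlike most nuclear members. All 13 were lower, with log2 fold changes of -1.40 to -0.72 and a median of -1.10. MT-ND6 of complex I, the member of that list with the smallest adjusted p, had 320.5, 349.7 and 281.1 CPM with cepharanthine and 771.5, 552.3 and 732.2 CPM in controls (edgeR adjusted p = 0.000211). MT-ATP6 of complex V fell by 1.22 and MT-ATP8 by 1.22 on the log2 scale (edgeR adjusted p = 0.000255 and 0.00043). Control replicate 2 was the lowest control for these genes, as it was the highest for most nuclear members. With these genes taken out of the library sizes, the nuclear members still had 24 higher and 6 lower calls.

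Assembly factors, which help build the complexes without staying in them, were called in both directions. Of 52 tested, 5 were higher (9.62%) and 6 lower (11.5%), below the 14.7% and 13.2% of all genes, with a median log2 fold change of 0.01. All 3 calls among the 6 factors of complex III were lower: BCS1L (-0.64), which inserts the Rieske protein, TTC19 (-0.41) and UQCC1 (-0.39). For complex IV 4 of 24 were higher and 1 lower. COX17, the copper chaperone, had 27.4, 35.0 and 35.1 CPM with cepharanthine and 17.4, 20.1 and 14.8 CPM in controls (log2 fold change 0.90 ± 0.14, edgeR adjusted p = 0.00114), CMC2 rose by 0.60, and COA1 fell by 0.61. Of the 15 factors of complex I, ECSIT (0.48) was higher, and FOXRED1 (-0.33) and ACAD9 (-0.51) were lower. Of the 4 factors of complex II and the 3 of complex V edgeR called 0, DESeq2 also called 0, and 0 had an unadjusted edgeR p under 0.05. When a library was left out, the complex I factors had 1 to 2 higher and 0 to 1 lower, those of complex III 2 to 3 lower, and those of complex IV 2 to 6 higher and 1 to 2 lower. With limma on log2(FPKM + 1) complex III had 1 factor higher and 1 lower, and with limma on log2(TPM + 1) 1 higher and 0 lower.

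Subunit genes that the symbol patterns leave out were read as well. COX7A2L, which takes part in supercomplexes of complexes III and IV, had 74.8, 78.9 and 77.7 CPM with cepharanthine and 39.5, 44.0 and 42.3 CPM in controls (log2 fold change 0.88 ± 0.07, edgeR adjusted p = 3.5e-05). Its groups were far apart, control replicate 2 included. COX4I1, the largest nuclear subunit of complex IV, had 221.1, 247.9 and 246.0 CPM with cepharanthine and 176.3, 236.0 and 185.5 CPM in controls, and its value of 0.26 did not pass (edgeR adjusted p = 0.112). Of 4 such genes tested, 1 was higher and 0 lower, or 25% and 0% against 14.7% and 13.2% of all genes.

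Of 19 electron carriers, ubiquinone synthesis enzymes and other ubiquinone-linked dehydrogenases, 2 were higher, COQ5 (0.57) and SQOR (0.55), and 1 lower, DHODH (-0.65), or 10.5% and 5.26% against 14.7% and 13.2% of all genes. Leaving out a library gave 1 to 2 higher and 1 lower, limma on log2(TPM + 1) 4 higher and 0 lower, and limma on log2(FPKM + 1) without a minimum 0 and 0. Of 8 nuclear regulators of these genes tested, 3 were higher and 2 lower, or 37.5% and 25% against 14.7% and 13.2% of all genes. The count of lower regulators moved in 4 of the alternative fits. GABPB1 (0.46) was among the higher and PPARGC1B (-0.58) among the lower. NRF1, a transcription factor of many respiratory genes, had 44.3, 43.1 and 53.02 CPM with cepharanthine and 27.9, 25.2 and 26.2 CPM in controls (log2 fold change 0.82 ± 0.10, edgeR adjusted p = 0.00027). YY1 rose by 0.31. PPRC1, a coactivator of the PGC-1 family, fell by 0.81, with 32.1, 30.8 and 24.4 CPM with cepharanthine and 52.3, 45.0 and 55.6 CPM in controls (edgeR adjusted p = 0.000933). TFAM (0.11) and GABPA (-0.04) did not pass, and PPARGC1A was too low to test, at a mean of 0.139 CPM with cepharanthine and 0.165 in controls.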

How the data were processed

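PC-3 mRNA was measured in 3 cepharanthine and 3 control libraries. Raw counts and FPKM per gene were deposited by the authors, per the file headers. The submitters' processing notes name GRCm38, mm10 and hg38 without roles; the sources used here give no aligner, counting tool, strand setting or gene length. Of the identifiers, 96.8% were in GENCODE 29 on GRCh38, and all 115 members lay at the same locus. Control columns are named differently there and in the labels, and were assigned through their group and replicate number.

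Counts were filtered with filterByExpr, scaled by TMM and tested two-sided in edgeR 4.0.16 under R 4.3.3 (quasi-likelihood), adjusted over 21965 genes at 0.05. The SE is the absolute log2 fold change over the square root of F. CPM use TMM-scaled totals. Alternatives were DESeq2 1.42.0, RLE factors, no filter, a replicate block, no mitochondrial genes, limma 3.58.1 on log2(FPKM + 1) or TPM, and each library left out; a length offset and leaving out overlapping members were added after seeing the data. The tests were checked on simulated data, where the share of false calls was near the threshold set for limma but above it for edgeR and more so for DESeq2. TPM was rescaled from FPKM. The floor of 3 counts covers counting error only.

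Members and lists were chosen with earlier results of these data known. Per complex, up to 3 called members with the highest and 3 with the lowest fold change, all SDH genes and the COX isoform pairs are given by library, and up to 3 of each other list by smallest adjusted p. NDUFV2, NDUFS3, UQCRFS1, ATP5F1D, ATP5MC2, ATP5MC3, ATP5IF1, ATP5F1B, ATP5F1AP10, TFAM, GABPA and PPARGC1A, the CCAAT box and the cAMP response element were chosen after their values were seen. GABPB1 and PPARGC1B were likewise named after their values were seen. Some genes are not reported here by name and are left out of the figures that name genes; they stay in all counts and medians. The Dixon test was not applied to groups of 3.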

Additional observations from a re-analysis of the deposited data

How the results depend on the processing

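RLE factors and leaving out mitochondrial genes moved none of the counts of higher and lower members. DESeq2 gave 26 higher and 7 lower members, with 2 lower in complex V. The length offset gave 1 higher in complex III and 2 lower in complex V, and counting pseudogenes gave 2 lower in complex V. Without members that overlap another gene, 8 were higher and 1 lower of 35. Without a filter, 19 were higher and 4 lower, with 0 and 0 in complex II, 1 higher in complex III and 2 higher in complex IV.

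With limma on log2(FPKM + 1) and log2(FPKM + 0.1), 1897 and 1883 of all genes were lower, 24 members were higher and 4 lower in each, and complex II had 0 higher and 0 lower. Without a minimum FPKM, 2077 genes were higher and 1333 lower, and of members 9 and 3, with 4 higher in complex I, 0 and 0 in complex II, 1 higher in complex III, 2 higher in complex IV and 2 higher and 0 lower in complex V. With TPM, 4931 genes were higher and 983 lower, and of members 39 and 0, with 19 higher and 0 lower in complex I, 0 lower in complex II, 4 higher and 0 lower in complex III and 0 lower in complex V. The medians were then 0.45, 0.29, 0.48, 0.55 and 0.50 for complexes I to V, against 0.26 over all genes. The cause was not tested.

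Same-numbered libraries gave no sign of pairing: their deviations from the group means had r of 0.00, -0.01 and -0.07. Libraries with different numbers had r of -0.07 to 0.07. With 3 libraries in each group, these values cannot settle whether libraries shared a culture or day. With a replicate block, 19 members were higher and 5 lower, with 0 and 0 in complex II and 1 higher in complex III.

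Leaving out each library in turn gave 7 to 33 higher and 3 to 5 lower members, and 2392 to 3094 higher and 2120 to 2607 lower genes in all. By complex the higher calls ranged over 3 to 13 in I, 0 to 1 in II, 0 to 3 in III, 0 to 8 in IV and 3 to 8 in V, and the lower calls over 1 to 3 in I, 0 to 1 in II, 1 to 1 in III, 0 to 0 in IV and 1 to 2 in V. The medians ranged over 0.19 to 0.31, 0.01 to 0.09, 0.16 to 0.35, 0.21 to 0.48 and 0.23 to 0.32. SDHB ranged over -0.011 to 0.10, turning to -0.011 without cepharanthine replicate 2 and to -0.0052 without control replicate 3. COX6A1 ranged over -0.036 to 0.11, turning to -0.036 without cepharanthine replicate 2. Neither gene was called. At 52774506 or more counts a library, COX7A1, COX8C and ATP5MGL were too low to test.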
